A study of Mus musculus with 12 samples.

Results

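Annexins are proteins that bind acidic phospholipids when calcium is present, through a conserved core of repeats, while their differing N-terminal tails bind partner proteins. They help to organise membrane domains, to seal torn plasma membrane and to move vesicles, and several act outside the cell, in fibrinolysis and in the ending of inflammation. In the kidney they are made by tubule epithelium as well as by glomerular, vascular and immune cells. The 9 annexin genes described here are Anxa1, Anxa2, Anxa3, Anxa4, Anxa5, Anxa6, Anxa7, Anxa11 and Anxa13, listed by symbol as the annexins expressed in kidney. They are 9 of 32047 genes in the count table, which also held Anxa8, Anxa9 and Anxa10 and so 12 annexin genes in all. The members were chosen by their measured expression level in kidney, and levels are therefore described without a test.

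RNA from mouse kidney was sequenced in 12 libraries, 4 in each of 3 groups. In the AKI_FGF23_R176QR179Q group (titled AKI_A_FGF23_R176QR179Q in the labels, its kidneys called FGF23 variant kidneys here), a form of the hormone FGF23 with a pair of substitutions was overexpressed, and 3 weeks later acute kidney injury was set off by rhabdomyolysis, in which muscle fibres break down. The AKI_mcherry group (AKI_A_mcherry) bears the name of the same injury and of mCherry, a red fluorescent protein. The NC group is not expanded in the labels. Strain, sex, age, the route of overexpression and the day of collection are not stated in the labels, and nothing says whether libraries came from separate animals, so p-values measure only the spread between these samples. No group named for the FGF23 variant without injury, or for mCherry without injury, was analysed here. The labels do not say whether NC received mCherry.

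Library totals ran from 55324078 to 70638283 counts. Fgf23 had 320 to 517 counts in the 4 libraries of FGF23 variant kidneys and 0 in each of the other 8 libraries. If counts were independent, a count of 0 would allow up to 3 counts by counting error, but they are not taken as independent here. These are whole-kidney extracts, so fewer cells of a type and less RNA per cell cannot be told apart. Of the 8 proximal tubule markers listed, which include Lrp2 and Slc34a1, 0 were at 0 in any group. Their summed level was 1023 to 2450 CPM (TMM-scaled counts relative to library size) in FGF23 variant kidneys, 749 to 1059 CPM in AKI_mcherry and 7610 to 11173 CPM in NC.

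All 9 annexins passed the filter on low counts, and most of them were more abundant in AKI_mcherry than in NC. In AKI_mcherry against NC, 7 of 9 were higher and 2, Anxa11 and Anxa13, were lower at an adjusted p under 0.05 (edgeR quasi-likelihood test), where 53.1% of all tested genes were called, 27.2% higher and 26.0% lower. No overlap between the libraries of both groups was seen for 9 of 9 annexins, against 51.5% of all genes. In FGF23 variant kidneys against AKI_mcherry, 5 of 9 were lower (Anxa1, Anxa2, Anxa3, Anxa4 and Anxa7) and 0 were higher, where 23.1% of all genes were called, 11.4% lower and 11.7% higher. Such a gap was seen for 6 of 9, against 28.4% of all genes. In FGF23 variant kidneys against NC, 6 of 9 were higher (Anxa2, Anxa3, Anxa4, Anxa5, Anxa6 and Anxa7), 1 was lower (Anxa13) and 2 were not called, where 42.3% of all genes were called, 21.7% higher and 20.6% lower. Here 7 of 9 had no overlap, against 41.6% of all genes.

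The median log2 fold change of the 9 annexins was 1.17 in AKI_mcherry against NC, -0.36 in FGF23 variant kidneys against AKI_mcherry and 0.73 in FGF23 variant kidneys against NC. Over all genes tested the medians were -0.0026, 0.0084 and 0.011 in the same order. The first 2 comparisons share the AKI_mcherry libraries, and each shares a group with the third. Scaling by library totals alone put the median of all genes at 0.12, 0.21 and 0.34 in that order. Under it 3 annexins were lower (Anxa1, Anxa2 and Anxa3) and 1 higher (Anxa11) in FGF23 variant kidneys against AKI_mcherry, while all genes split into 4060 higher and 1035 lower, against 2199 higher and 2148 lower with TMM scaling.

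**Figure D1:**
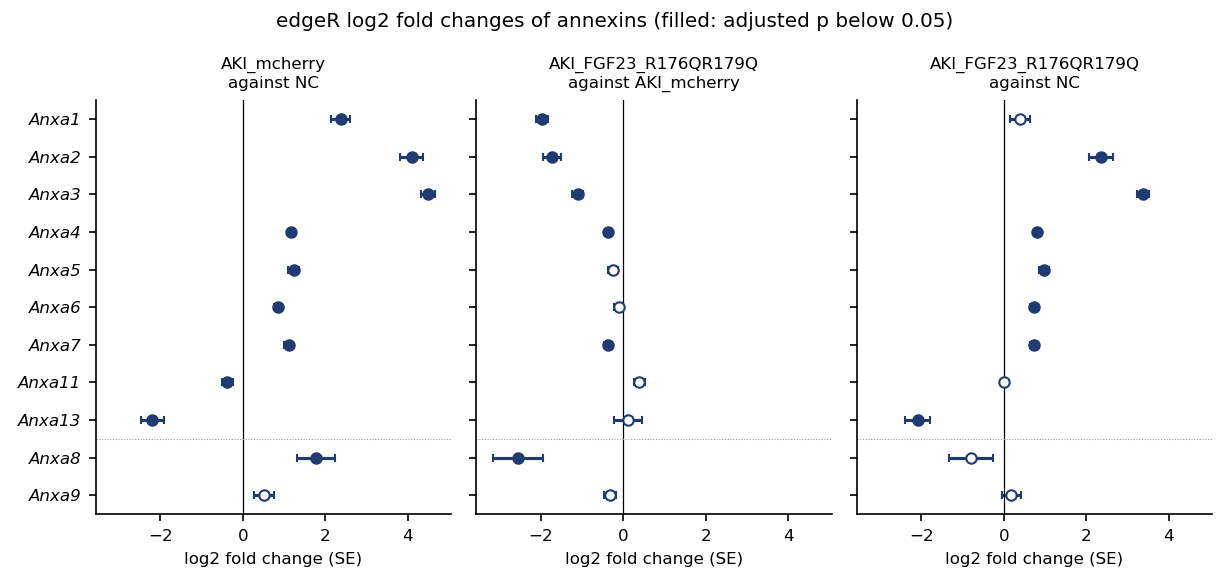
Log2 fold change with its standard error (x axis) of 9 annexins and, below the dotted line, of Anxa8 and Anxa9, in 3 comparisons of 4 against 4 libraries, from edgeR; filled points have an adjusted p under 0.05. Anxa3 and Anxa2 stand farthest to the right in AKI_mcherry against NC, at 4.49 and 4.09, and Anxa1, Anxa2 and Anxa3 lie to the left of 0 in the middle panel.

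Anxa2 encodes annexin A2, which pairs with S100A10 at the plasma membrane, links it to actin and gathers plasminogen and its activator on the cell surface. It had 151, 204, 313 and 243 CPM in FGF23 variant kidneys, 605, 931, 716 and 774 CPM in AKI_mcherry and 68.7, 48.1, 28.1 and 35.3 CPM in NC. The 3 groups were fully apart, with AKI_mcherry highest and NC lowest. In AKI_mcherry Anxa2 rose 17.1-fold over NC (log2 fold change 4.09 ± 0.28, SE; adjusted p = 1.09e-06), the 248th largest rise of 18724 genes. Its level fell 3.31-fold in FGF23 variant kidneys, below AKI_mcherry (log2 -1.73 ± 0.22, adjusted p = 9.58e-04). It was 5.13-fold above NC there (log2 2.36 ± 0.29, adjusted p = 0.00011).

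Anxa3, a smaller annexin abundant in neutrophils and linked to the growth of vessels, had 139.7, 129, 138 and 173 CPM in FGF23 variant kidneys, 347, 297, 255 and 350.2 CPM in AKI_mcherry and 17.3, 14.8, 11.4 and 13.1 CPM in NC. Every AKI_mcherry library lay above every library of FGF23 variant kidneys, and every NC library lay far below both. Its rise in AKI_mcherry over NC, 22.4-fold (log2 4.49 ± 0.17, adjusted p = 4.74e-08), ranked 206th. FGF23 variant kidneys were 2.15-fold below AKI_mcherry (log2 -1.11 ± 0.13, adjusted p = 8.12e-04) and 10.4-fold above NC (log2 3.37 ± 0.15, adjusted p = 2.27e-07).

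Anxa1 encodes annexin A1, which glucocorticoids induce and which, outside the cell, acts on formyl peptide receptors to limit the entry of neutrophils. It had 12.6, 15.9, 17.5 and 12.1 CPM in FGF23 variant kidneys, 54.0, 57.6, 65.6 and 51.9 CPM in AKI_mcherry and 14.99, 13.9, 6.40 and 9.75 CPM in NC. The FGF23 variant and NC libraries overlapped, and both lay below AKI_mcherry. Anxa1 rose 5.17-fold in AKI_mcherry over NC (log2 2.37 ± 0.23, adjusted p = 1.32e-05) and fell 3.93-fold in FGF23 variant kidneys below AKI_mcherry (log2 -1.98 ± 0.14, adjusted p = 6.51e-05). Between FGF23 variant kidneys and NC the log2 difference was 0.39 ± 0.24 (adjusted p = 0.227), which does not show that they were alike; with library totals alone as scaling it was 0.72 and passed (adjusted p = 0.0292), against a median of all genes of 0.34.

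**Figure D2:**
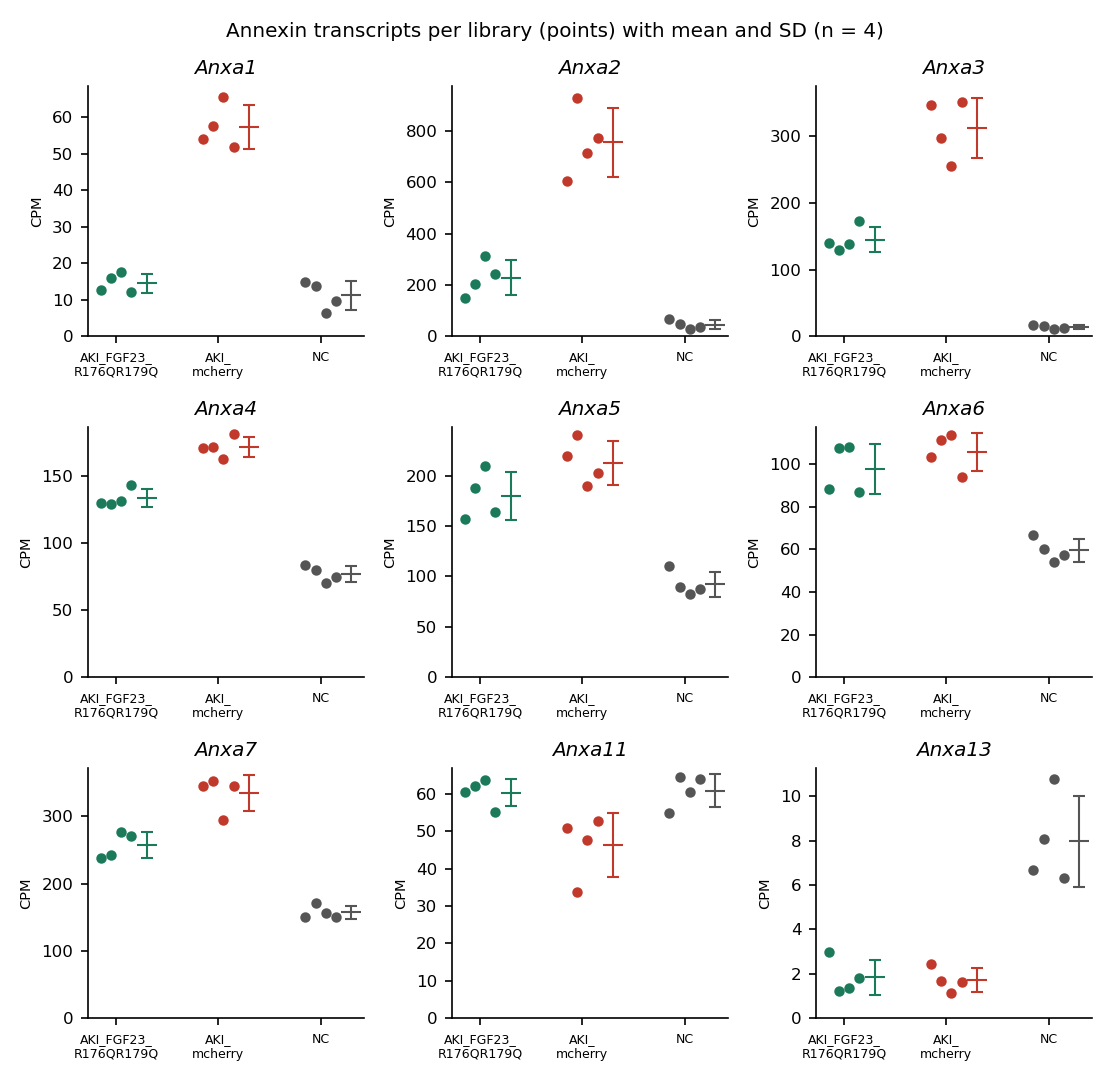
CPM after TMM scaling (y axis, from 0, with its own range in each panel) of 9 annexins in the AKI_FGF23_R176QR179Q, AKI_mcherry and NC groups; points are single libraries, and the bar beside them is the mean with its SD (n = 4). AKI_mcherry libraries are highest for Anxa1, Anxa2 and Anxa3, and NC libraries are highest for Anxa13.

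The windows before the annotated transcription start are shown for Anxa2 and Anxa1, the pair with the largest falls among the 9 members in FGF23 variant kidneys against AKI_mcherry, and for Anxa5 and Anxa11, which did not pass that test. RefSeq promoter entries (assembly GRCm38.p6) were matched for 6 of 9 annexins by symbol, and not for Anxa3, Anxa6 or Anxa13. Each line gives the 250 bases before the start, read 5′ to 3′ on the gene's strand. Capitals mark TGANTCA, the AP-1 motif, and TATAAA, the TATA motif.
Anxa2, chr9:69453433-69453682, plus strand: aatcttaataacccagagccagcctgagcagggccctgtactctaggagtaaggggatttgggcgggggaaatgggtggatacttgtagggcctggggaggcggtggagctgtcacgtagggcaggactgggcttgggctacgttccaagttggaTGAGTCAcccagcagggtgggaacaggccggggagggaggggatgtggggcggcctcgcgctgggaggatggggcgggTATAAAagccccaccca
Anxa1, chr19:20390672-20390921, minus strand: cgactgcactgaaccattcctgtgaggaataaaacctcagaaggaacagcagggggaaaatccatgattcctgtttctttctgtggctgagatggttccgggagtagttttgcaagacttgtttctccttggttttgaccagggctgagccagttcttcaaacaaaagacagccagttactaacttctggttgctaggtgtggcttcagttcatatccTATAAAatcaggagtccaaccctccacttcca
Anxa5, chr3:36475888-36476137, minus strand: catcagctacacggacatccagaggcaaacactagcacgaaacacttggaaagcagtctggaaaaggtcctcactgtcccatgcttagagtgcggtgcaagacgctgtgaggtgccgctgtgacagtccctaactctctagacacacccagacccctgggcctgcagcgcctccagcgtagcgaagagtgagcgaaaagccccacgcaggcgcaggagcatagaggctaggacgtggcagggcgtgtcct
Anxa11, chr14:25841905-25842154, plus strand: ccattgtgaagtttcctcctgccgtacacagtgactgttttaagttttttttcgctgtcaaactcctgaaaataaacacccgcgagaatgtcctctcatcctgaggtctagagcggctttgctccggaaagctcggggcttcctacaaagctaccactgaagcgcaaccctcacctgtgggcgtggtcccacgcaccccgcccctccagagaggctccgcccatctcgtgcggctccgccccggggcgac

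The Anxa2 window held 1 AP-1 motif at positions -95 to -89, counted back from the base before the start as -1, and 1 TATA motif at -17 to -12. It also held 3 GC boxes (GGGCGG, the letters bound by SP1), the nearest at -24 to -19. The Anxa1 window held a TATA motif at -32 to -27 and neither an AP-1 motif nor a GC box. The Anxa11 window held 3 GC boxes on the opposite strand and neither of the capitalised motifs, and the Anxa5 window held none of these. Anxa4 and Anxa7, which also passed as lower, are not printed, and none of their windows held an AP-1 or TATA motif. The Anxa7 windows, which overlap, held 4 and 1 GC boxes, and the Anxa4 windows none. Among the other annexins, the Anxa8 and Anxa9 windows held neither an AP-1 nor a TATA motif. That of Anxa10, which was not tested, held 2 AP-1 motifs and 1 TATA motif. Of 32851 promoter windows of the same length, 6.75% held the AP-1 letters, 12.4% TATAAA and 32.7% a GC box, with both strands searched for each. No overlap between motifs occurred in the windows printed. The motifs were chosen with the sequences in view, and a match is a string of letters, not a measured site.

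Anxa5 encodes annexin A5, which coats exposed phosphatidylserine on dying cells and forms lattices at membrane tears. It had 157, 188, 209.8 and 164 CPM in FGF23 variant kidneys, 219, 240.2, 189.7 and 202 CPM in AKI_mcherry and 111, 89.1, 82.4 and 87.1 CPM in NC. The FGF23 variant and AKI_mcherry libraries overlapped and both groups lay above NC. The rise in AKI_mcherry over NC was 2.34-fold (log2 1.23 ± 0.12, adjusted p = 1.39e-05) and that in FGF23 variant kidneys over NC 1.97-fold (log2 0.98 ± 0.12, adjusted p = 0.000105). The difference of FGF23 variant kidneys from AKI_mcherry, log2 -0.24 ± 0.12, did not pass (adjusted p = 0.165).

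Anxa6 encodes annexin A6, with a longer core of repeats than the others and roles in cholesterol transport and endocytosis. It had 88.2, 107, 108 and 87.2 CPM in FGF23 variant kidneys, 103, 111, 114 and 94.0 CPM in AKI_mcherry and 66.8, 60.1, 54.2 and 57.3 CPM in NC. As for Anxa5, the injured groups overlapped, and NC was below both. It was 1.80-fold higher in AKI_mcherry than in NC (log2 0.85 ± 0.10, adjusted p = 4.59e-05) and 1.66-fold higher in FGF23 variant kidneys than in NC (log2 0.73 ± 0.10, adjusted p = 0.000231). Between the injured groups the log2 difference was -0.11 ± 0.11 (adjusted p = 0.495), and library totals alone turned it to 0.097 (adjusted p = 0.524).

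Anxa4 and Anxa7 were higher in AKI_mcherry than in NC in like measure, and slightly lower in FGF23 variant kidneys than in AKI_mcherry. Anxa4, an annexin of epithelial cells that bends and joins membranes, had 130.1, 129, 131 and 143 CPM in FGF23 variant kidneys, 171, 171, 162 and 181 CPM in AKI_mcherry and 83.7, 79.9, 70.1 and 74.5 CPM in NC. Anxa7, first known as synexin for its part in membrane fusion, had 238, 243, 277 and 270.0 CPM in FGF23 variant kidneys, 345, 353, 294 and 344 CPM in AKI_mcherry and 150.4, 172, 156 and 151 CPM in NC. For both genes no library of one group reached into another. Anxa4 was 2.26-fold higher in AKI_mcherry than in NC (log2 1.17 ± 0.09, adjusted p = 2.59e-06) and 1.28-fold lower in FGF23 variant kidneys than in AKI_mcherry (log2 -0.36 ± 0.08, adjusted p = 0.0127).

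Anxa7 was 2.16-fold higher in AKI_mcherry than in NC (log2 1.11 ± 0.10, adjusted p = 7.73e-06) and 1.30-fold lower in FGF23 variant kidneys than in AKI_mcherry (log2 -0.38 ± 0.10, adjusted p = 0.0222). Over NC FGF23 variant kidneys were 1.75-fold higher for Anxa4 (log2 0.81 ± 0.08, adjusted p = 2.81e-05) and 1.65-fold higher for Anxa7 (log2 0.73 ± 0.09, adjusted p = 7.70e-05). The Anxa7 call between the injured groups was lost without FGF23 variant library 1 (adjusted p = 0.0691), without FGF23 variant library 2 (adjusted p = 0.0679) and without AKI_mcherry library 4 (adjusted p = 0.0520). With library totals alone the falls were -0.15 for Anxa4 and -0.17 for Anxa7, and neither passed (adjusted p = 0.242 and 0.226), where the median of all genes stood at 0.21.

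Anxa11 encodes annexin A11, which tethers RNA granules to lysosomes in neurons and binds the calcium sensor ALG-2. It had 60.4, 62.1, 63.6 and 55.2 CPM in FGF23 variant kidneys, 50.8, 33.7, 47.7 and 52.6 CPM in AKI_mcherry and 54.7, 64.4, 60.4 and 63.8 CPM in NC. All 4 AKI_mcherry libraries lay below those of the other groups, with library 2 the lowest. In AKI_mcherry it fell 1.30-fold below NC (log2 -0.38 ± 0.14, adjusted p = 0.0373). FGF23 variant kidneys were 1.31-fold above AKI_mcherry without passing (log2 0.39 ± 0.13, adjusted p = 0.0630). Against NC FGF23 variant kidneys differed by a log2 fold change of 0.0050 ± 0.082 (adjusted p = 0.968). With library totals alone as scaling this difference was 0.34 and passed as higher (adjusted p = 0.0061), where the median of all genes also stood at 0.34.

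The call of Anxa11 in AKI_mcherry against NC held without AKI_mcherry library 2. It was lost without AKI_mcherry library 3 (adjusted p = 0.0639) and without NC library 2, 3 or 4 (adjusted p = 0.0990, 0.0719 and 0.0860). The call was also lost with no filter on low counts (adjusted p = 0.0604), with a replicate block (adjusted p = 0.0686) and with library totals alone (log2 -0.24, adjusted p = 0.239). The rise in FGF23 variant kidneys over AKI_mcherry passed with DESeq2 (adjusted p = 0.0421), with all 12 libraries in 1 fit (adjusted p = 0.0357) and with library totals alone (adjusted p = 0.0233).

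Anxa13 encodes an annexin largely confined to intestinal and kidney epithelium, anchored by a fatty acid and known from the sorting of proteins to the apical surface. The mean CPM of Anxa13 was the lowest among the members in each group, although CPM is not scaled to gene length. It had 2.98, 1.25, 1.35 and 1.81 CPM in FGF23 variant kidneys, 2.44, 1.68, 1.12 and 1.62 CPM in AKI_mcherry and 6.68, 8.07, 10.8 and 6.31 CPM in NC. These values rest on 96 to 235 counts per library in FGF23 variant kidneys, 71 to 139 in AKI_mcherry and 363 to 660 in NC. The injured groups overlapped each other and lay below NC. Anxa13 fell 4.58-fold in AKI_mcherry (log2 -2.19 ± 0.28, adjusted p = 7.85e-05) and 4.25-fold in FGF23 variant kidneys (log2 -2.09 ± 0.30, adjusted p = 0.000298), both against NC. Between the injured groups the log2 difference was 0.11 ± 0.34 (adjusted p = 0.843), and its sign turned without FGF23 variant library 1 (-0.22) or AKI_mcherry library 3 (-0.048).

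Levels can be compared between genes only per length, for which the deposited FPKM values were used. Among FGF23 variant kidneys Anxa5 led at 105.6 ± 13.6 FPKM (SD, n = 4 here and below), then Anxa2 at 63.8 ± 19.1, Anxa7 at 44.8 ± 3.51, Anxa3 at 41.6 ± 5.80, Anxa6 at 34.8 ± 3.88 and Anxa4 at 30.0 ± 1.73 FPKM. From Anxa2 down to Anxa4, the libraries of each gene overlapped those of the next, and Anxa11 (15.2 ± 0.830), Anxa1 (5.20 ± 0.900) and Anxa13 (1.21 ± 0.527 FPKM) followed, each apart from the gene above it. In AKI_mcherry Anxa2 led at 182 ± 24.6 FPKM, above Anxa5 at 107.8 ± 5.90, Anxa3 at 77.5 ± 12.9 and Anxa7 at 50.3 ± 3.71 FPKM, with no overlap between neighbours down to there. Anxa4 (33.3 ± 2.53) and Anxa6 (32.5 ± 2.69 FPKM) overlapped, and Anxa1 (17.8 ± 2.23), Anxa11 (10.2 ± 2.36) and Anxa13 (0.965 ± 0.315 FPKM) came last. In NC Anxa5 led at 42.7 ± 5.59 FPKM, followed by Anxa7 at 21.6 ± 1.78 and Anxa6 at 16.7 ± 1.49. Anxa4 (13.6 ± 1.10), Anxa11 (12.1 ± 0.963) and Anxa2 (9.93 ± 3.899 FPKM) overlapped in turn, as did Anxa13 (4.11 ± 1.09), Anxa3 (3.18 ± 0.567) and Anxa1 (3.17 ± 1.13 FPKM).

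The make-up of the family shifted with these levels. Anxa2 made up 18.4% ± 3.58 of the summed annexin FPKM in FGF23 variant kidneys, 35.5% ± 4.08 in AKI_mcherry and 7.64% ± 2.26 in NC. Anxa3 made up 12.2% ± 2.00 in FGF23 variant kidneys, 15.1% ± 2.31 in AKI_mcherry and 2.49% ± 0.210 in NC. For Anxa5 the share was 30.9% ± 2.06 in FGF23 variant kidneys, 21.1% ± 1.34 in AKI_mcherry and 33.5% ± 1.75 in NC. Together the 9 genes took 0.127% of all counts in FGF23 variant kidneys (0.112% to 0.143% over its libraries), 0.196% in AKI_mcherry (0.189% to 0.210%) and 0.0469% in NC (0.0430% to 0.0507%), and the 3 ranges were apart.

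**Figure D3:**
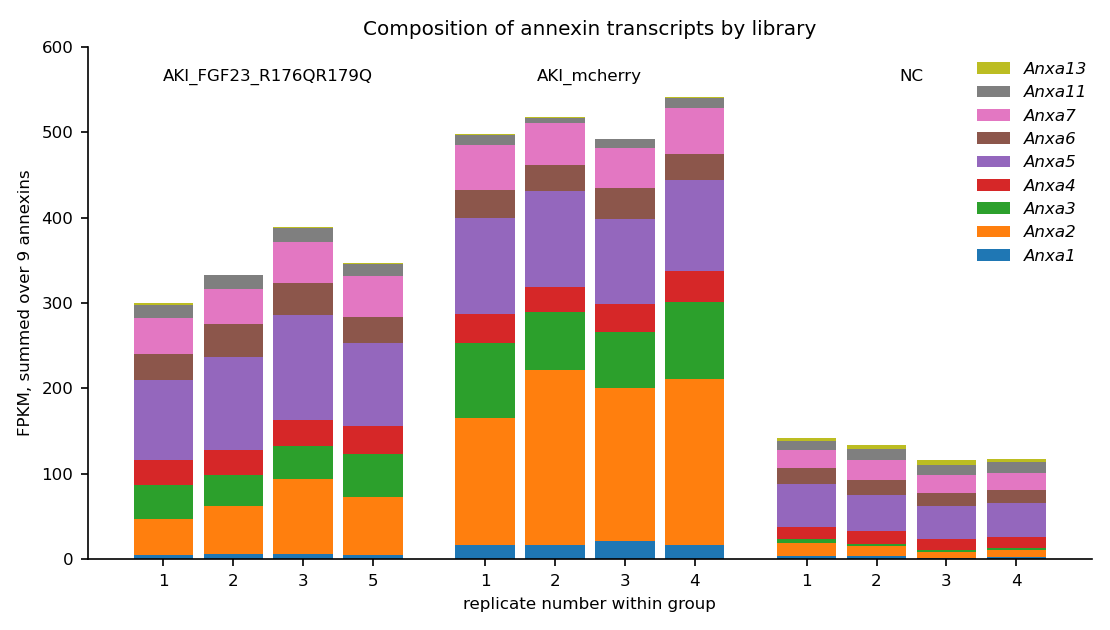
FPKM, without TMM scaling, summed over 9 annexins (y axis, from 0) in each library (x axis, replicate number within its group), stacked by gene. The sums run from 299.7 to 389 FPKM in AKI_FGF23_R176QR179Q, from 493 to 541 in AKI_mcherry and from 116 to 142 in NC, and the Anxa2 and Anxa3 segments are thick in the injured groups and thin in NC.

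Outside the 9 members, the rule states no threshold, and Anxa13, the member lowest in CPM, can be set beside Anxa9, the nearest gene outside. Anxa9 had 2.73 ± 0.222 FPKM in FGF23 variant kidneys, 2.95 ± 0.234 in AKI_mcherry and 1.92 ± 0.648 in NC, which is above Anxa13 in the injured groups and below it in NC. Anxa9 was not called in any of the 3 comparisons (adjusted p = 0.102 for AKI_mcherry against NC), but it passed there with library totals alone (log2 0.63, adjusted p = 0.0492). It overlaps Mindy1 on the opposite strand (a gene with far more counts), and the labels do not state whether counting used strand. Anxa10, an annexin of stomach, had 4 counts in 1 AKI_mcherry library and 0 in the other 11, and was not tested.

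Anxa8, known from squamous and other lining epithelia, had 0.862, 0.399, 2.49 and 0.660 CPM in FGF23 variant kidneys, 8.55, 2.36, 10.5 and 4.59 CPM in AKI_mcherry and 3.04, 2.02, 1.70 and 0.998 CPM in NC. AKI_mcherry library 2 lay among the values of the other groups, so the ranges overlapped. Anxa8 was 3.39-fold higher in AKI_mcherry than in NC (log2 1.76 ± 0.46, adjusted p = 0.00817) and 5.89-fold lower in FGF23 variant kidneys than in AKI_mcherry (log2 -2.56 ± 0.61, adjusted p = 0.0155). The second call was lost without FGF23 variant library 1 (adjusted p = 0.0505). Against NC FGF23 variant kidneys were not called (log2 -0.79 ± 0.54, adjusted p = 0.270), but the difference passed without FGF23 variant library 3 (log2 -1.57, adjusted p = 0.0179).

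S100 proteins are small calcium sensors that bind annexin tails. Of 6 annexin-binding S100 genes, 5 were higher and 0 lower in AKI_mcherry against NC, with a median log2 fold change of 2.48 over the list. Against AKI_mcherry, 0 were higher and 5 lower in FGF23 variant kidneys, with a median of -1.05, and 3 were higher and 0 lower than in NC. Across the whole table, the shares called higher and lower were 27.2% and 26.0% in AKI_mcherry against NC, 11.7% and 11.4% in FGF23 variant kidneys against AKI_mcherry, and 21.7% and 20.6% in FGF23 variant kidneys against NC, and the counts of this and the following lists are to be read beside these shares. S100b was not called in any comparison (adjusted p = 0.159, 0.994 and 0.234 in the same order). S100a6, which binds several annexins, was at 46.7 ± 6.78 CPM in FGF23 variant kidneys, 154 ± 70.4 in AKI_mcherry and 11.05 ± 7.30 in NC. S100a11, a partner of annexin A1, was at 247 ± 62.4 CPM in FGF23 variant kidneys, 594 ± 166 in AKI_mcherry and 78.5 ± 16.3 in NC.

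S100a10, whose protein joins annexin A2 in one complex and is held stable by it, had 172, 210.4, 274 and 206 CPM in FGF23 variant kidneys, 306, 514, 374 and 347 CPM in AKI_mcherry and 61.4, 47.4, 40.3 and 40.9 CPM in NC. The groups were apart, in the same order as for Anxa2. It rose 8.24-fold in AKI_mcherry over NC (log2 3.04 ± 0.20, adjusted p = 7.52e-07) and fell 1.78-fold in FGF23 variant kidneys below AKI_mcherry (log2 -0.83 ± 0.18, adjusted p = 0.0109). The ratio of Anxa2 to S100a10 counts, which does not depend on library scaling, was 0.880, 0.972, 1.14 and 1.18 in FGF23 variant kidneys, 1.98, 1.81, 1.92 and 2.23 in AKI_mcherry and 1.12, 1.02, 0.699 and 0.862 in NC. Every AKI_mcherry library exceeded all others, and the FGF23 variant and NC libraries overlapped.

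On the log2 scale the ratio averaged 0.05 ± 0.20 in FGF23 variant kidneys, 0.98 ± 0.13 in AKI_mcherry and -0.14 ± 0.30 in NC (SD, n = 4 each). The difference was 1.12 for AKI_mcherry against NC and -0.93 for FGF23 variant kidneys against AKI_mcherry, each with an exact two-sided permutation p of 0.0286, the smallest that 70 assignments allow, and an adjusted p of 0.0429 over the 3 comparisons. For FGF23 variant kidneys against NC it was 0.19 (exact permutation p = 0.343). Per length, the FPKM ratio of Anxa2 to S100a10 was 0.339 ± 0.0462 in FGF23 variant kidneys, 0.644 ± 0.0581 in AKI_mcherry and 0.300 ± 0.0596 in NC, so S100a10 was the more abundant transcript throughout. With 1 library left out, 35 assignments cannot give a p below 0.0571, and the first 2 differences then stayed between 0.99 and 1.22 and between -0.99 and -0.85.

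**Figure D4:**
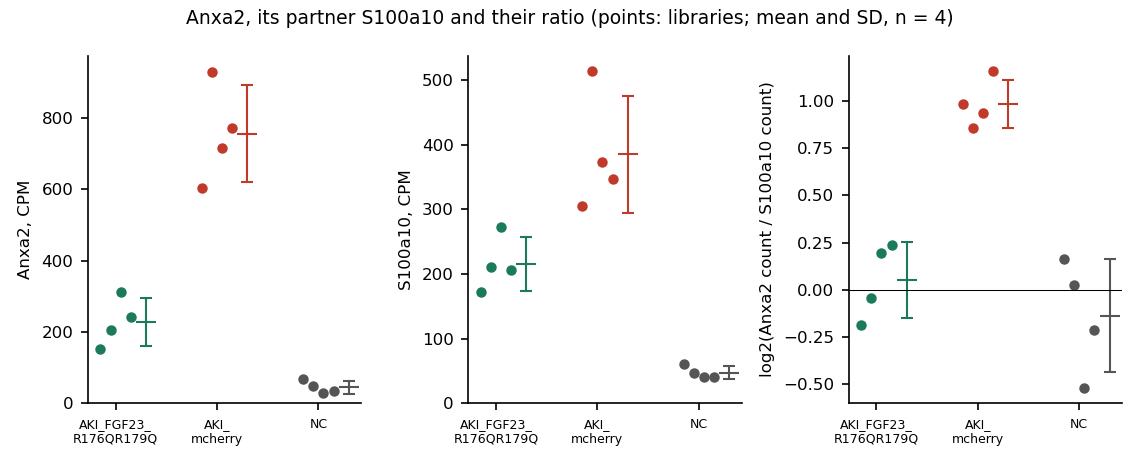
CPM of Anxa2 (left), CPM of S100a10 (middle) and the log2 ratio of their counts (right) in the AKI_FGF23_R176QR179Q, AKI_mcherry and NC groups; points are libraries and bars the mean with its SD (n = 4). The ratio lies between 0.86 and 1.16 in AKI_mcherry, above all 8 other libraries.

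On the cell surface, the annexin A2 complex meets the plasminogen system. Of 7 genes tested from this list, 4 were higher and 1 lower in AKI_mcherry against NC. With 1 library left out, 3 to 5 were higher there. Plaur, the urokinase receptor, was 25.0-fold higher (log2 4.64 ± 0.23, adjusted p = 1.30e-07). Of 8 tested in FGF23 variant kidneys against AKI_mcherry, 1 was higher and 3 lower. The gene that was higher is the one that was lower in AKI_mcherry against NC, and it was near the detection limit in AKI_mcherry. Plaur was among the 3 lower (1.32-fold, adjusted p = 0.0376). That call was lost with library totals alone (adjusted p = 0.232), without FGF23 variant library 1, 2 or 5 and without any single AKI_mcherry library. The list's falls were down to 1 without FGF23 variant library 1 or 2, or AKI_mcherry library 1 or 4, and its rise was at 0 without FGF23 variant library 1.

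Among 14 genes of membrane repair and annexin scaffolds, 9 were higher and 1 lower in AKI_mcherry against NC. Chmp4b, which encodes a subunit of the ESCRT machinery that buds and seals membranes, was 2.41-fold higher (adjusted p = 2.27e-06). Dysf, dysferlin, which brings vesicles to torn membrane, was 4.57-fold higher (adjusted p = 3.62e-06), and Ahnak, the scaffold bound by annexin A2 and S100A10, 2.70-fold higher (adjusted p = 3.29e-06). Smpd1, acid sphingomyelinase, was 2.01-fold lower (adjusted p = 7.25e-06). Against AKI_mcherry, 1 rose in FGF23 variant kidneys (Smpd1, 1.56-fold, adjusted p = 0.00259) and 2 fell, of which Chmp2a, for another ESCRT subunit, fell 1.56-fold (adjusted p = 0.00762). The falls numbered 1 without FGF23 variant library 1 or 5, or AKI_mcherry library 3. Without AKI_mcherry library 3 the rises numbered 2. The 3 called of 14 are a share near the 23.1% of all genes called in that comparison.

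Penta-EF-hand proteins include the calpains, proteases of membrane repair, and ALG-2, a partner of annexins A7 and A11. Of 7, 6 were higher and 0 lower in AKI_mcherry against NC, and 1 was higher and 3 lower in FGF23 variant kidneys against AKI_mcherry. Pdcd6, which encodes ALG-2, was at 65.5 ± 1.86 CPM in FGF23 variant kidneys, 104 ± 11.4 in AKI_mcherry and 63.8 ± 3.70 in NC, a fall of 1.59-fold between the injured groups (adjusted p = 0.00168). Pef1, peflin, which pairs with ALG-2, fell 1.38-fold there (adjusted p = 0.00574), and Capns1, the small calpain subunit, 1.54-fold (adjusted p = 0.00808). The 1 rise, of Gca, grancalcin, was not called without FGF23 variant library 2 (adjusted p = 0.0539).

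Annexins were first studied as inhibitors of phospholipase A2. Of 8 phospholipase A2 and prostaglandin genes, 5 were higher and 1 lower in AKI_mcherry against NC, and 0 were higher and 1 lower in FGF23 variant kidneys against AKI_mcherry, where 53.1% and 23.1% of all genes were called. The lower call in AKI_mcherry against NC went to 0 without AKI_mcherry library 1 or 4, or NC library 2, 3 or 4. The higher calls there numbered 4 to 5 with 1 library left out. Ptgs2, cyclooxygenase 2, was the 1 that fell, with 3.46 ± 0.723 CPM in FGF23 variant kidneys, 9.46 ± 2.83 in AKI_mcherry and 0.430 ± 0.309 in NC (2.73-fold below AKI_mcherry, adjusted p = 0.00357). Without AKI_mcherry library 4 the falls numbered 2. Of 8 glucocorticoid response genes, the pathway known for inducing Anxa1, 4 were higher and 2 lower in AKI_mcherry against NC, where 27.2% of all genes were higher and 26.0% lower. With FGF23 variant kidneys against AKI_mcherry, 2 of 8 were called, near the 23.1% of all genes: 1 was higher, the transcription factor gene Klf9 (1.48-fold, adjusted p = 0.00725), and 1 was lower, the kinase gene Sgk1 (adjusted p = 0.0338). Sgk1 was not called without FGF23 variant library 1, 2 or 5 or AKI_mcherry library 1 or 3 (adjusted p = 0.0989, 0.0820, 0.0655, 0.0598 and 0.0692), and without AKI_mcherry library 2 the list's rises numbered 2. The receptors of annexin A1 were near the detection limit: Fpr2, the 1 formyl peptide receptor gene tested, had 0.311 ± 0.107 CPM in FGF23 variant kidneys, 0.359 ± 0.261 in AKI_mcherry and 0.0902 ± 0.0956 in NC.

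**Figure D5:**
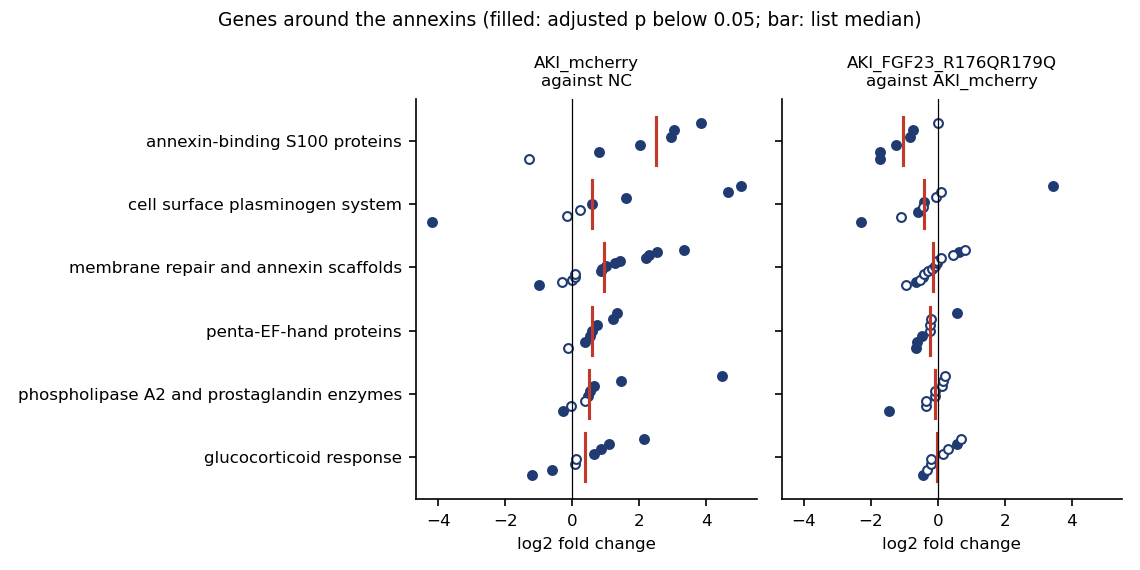
Log2 fold changes (x axis) of genes in 6 lists around the annexins, each point a gene and filled where the adjusted p is under 0.05, with the list median as a red bar, in AKI_mcherry against NC (left) and AKI_FGF23_R176QR179Q against AKI_mcherry (right). The S100 genes have the list medians farthest from 0, at 2.48 on the left and -1.05 on the right.

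In FGF23 variant kidneys against NC, the counts were 4 higher and 0 lower of 7 plasminogen genes, 8 higher and 1 lower of 14 membrane repair genes and 3 higher and 0 lower of 7 penta-EF-hand genes. They were 4 higher and 1 lower of 8 phospholipase and prostaglandin genes, and 4 higher and 2 lower of 8 glucocorticoid genes. Scaling by library totals alone moved these splits to 12 higher and 0 lower for membrane repair, 7 and 0 for penta-EF-hand, 7 and 0 for phospholipase and prostaglandin, and 4 and 1 for glucocorticoid genes. All genes moved likewise in that setting, to 7829 higher and 2096 lower, against 4123 higher and 3912 lower with TMM scaling. In the same setting, FGF23 variant kidneys against AKI_mcherry had 1 higher and 1 lower plasminogen gene, 2 and 1 for membrane repair, 1 and 1 for phospholipase and prostaglandin, and 2 and 0 for glucocorticoid genes, and AKI_mcherry against NC had 5 and 0 for phospholipase and prostaglandin genes. Ahnak2, a relative of Ahnak, was 10.2-fold higher in FGF23 variant kidneys than in NC (adjusted p = 1.32e-06). Myof, myoferlin, was at 122 ± 16.9 CPM in FGF23 variant kidneys, 124 ± 29.9 in AKI_mcherry and 25.9 ± 6.21 in NC. Its log2 difference between the injured groups was -0.02 ± 0.17 (adjusted p = 0.945), while it was 4.76-fold higher in FGF23 variant kidneys than in NC (adjusted p = 6.51e-06).

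Marker genes of other cell types and of injury also differed between the groups. The summed level of 6 markers of injured tubule, Havcr1, Lcn2, Krt20, Vcam1, Sox9 and Spp1, was 6280, 17185, 23386 and 14506 CPM in FGF23 variant kidneys, 31233 to 34471 CPM in AKI_mcherry and 649 to 809 CPM in NC. Within FGF23 variant kidneys, library 1 had the lowest and library 3 the highest sum. Anxa2 (151 and 313 CPM), Anxa5 (157 and 209.8 CPM) and Anxa7 (238 and 277 CPM) had their lowest and highest values in the same libraries. Anxa1, Anxa6 and Anxa11 were highest in library 3 too, but lowest in library 5. Anxa3 was lowest in library 2 (129 CPM) and highest in library 5 (173 CPM), as was Anxa4. Anxa13 was lowest in library 2 and highest in library 1. Of the 6 injured tubule markers, 5 were higher in AKI_mcherry than in NC and 5 lower in FGF23 variant kidneys than in AKI_mcherry, and 0 were at 0 in any group. Anxa11 and Anxa13 went the other way in AKI_mcherry against NC. The part of these markers in the annexin results was not tested.

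The 6 thick limb and distal tubule markers summed to 6016 to 8588 CPM in FGF23 variant kidneys, 3705 to 3899 CPM in AKI_mcherry and 7068 to 9259 CPM in NC. Of these, 6 of 6 were lower in AKI_mcherry than in NC and 6 of 6 higher in FGF23 variant kidneys than in AKI_mcherry. Of the 8 proximal tubule markers, 8 were lower in AKI_mcherry than in NC and 4 higher in FGF23 variant kidneys than in AKI_mcherry. All 8 were lower in FGF23 variant kidneys than in NC. The 6 collecting duct markers summed to 261 to 366 CPM in FGF23 variant kidneys, 282 to 664 CPM in AKI_mcherry and 342 to 495 CPM in NC, and the 5 podocyte markers to 322 to 445 CPM, 258 to 492 CPM and 272 to 397 CPM in the same groups. The part of these in the annexin results was not tested.

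The 7 neutrophil markers summed to 1.86 to 6.66 CPM in FGF23 variant kidneys, 3.05 to 11.1 CPM in AKI_mcherry and 0.784 to 1.42 CPM in NC, where Mmp8 was at 0. Of 5 tested, 5 were higher in AKI_mcherry than in NC, and of 4 tested, 2 were higher in FGF23 variant kidneys than in NC. Between FGF23 variant kidneys and AKI_mcherry, 0 of 6 were called. The 8 lymphocyte markers summed to 1.34 to 3.19 CPM in FGF23 variant kidneys, 1.26 to 1.66 CPM in AKI_mcherry, where Ms4a1 was at 0, and 3.51 to 5.07 CPM in NC. The 8 macrophage and monocyte markers summed to 122 to 175 CPM in FGF23 variant kidneys, 173 to 323 CPM in AKI_mcherry and 137 to 195 CPM in NC. Of these 8, 2 were higher and 2 lower in AKI_mcherry against NC. In FGF23 variant kidneys 1 was higher and 3 lower than in AKI_mcherry, and 4 were higher and 3 lower than in NC. The 5 endothelial markers summed to 206 to 252 CPM in FGF23 variant kidneys, 124 to 195 CPM in AKI_mcherry and 178 to 231 CPM in NC. The 6 fibroblast markers summed to 438 to 475 CPM in FGF23 variant kidneys, 157 to 516 CPM in AKI_mcherry and 214 to 295 CPM in NC. Of the endothelial markers, 0 were higher and 2 lower in AKI_mcherry against NC, and 3 higher and 0 lower in FGF23 variant kidneys against AKI_mcherry. None was called in FGF23 variant kidneys against NC. For fibroblast markers the calls were 2 higher and 2 lower, 2 higher and 0 lower, and 4 higher and 0 lower in the same order. Of the endothelial and fibroblast markers 0 were at 0 in any group. The part of these immune, vascular and fibroblast markers in the annexin results was not tested either.

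Genes outside the family with the pattern most like each annexin were found by the root mean square difference of centred log2(CPM + 1) over the 12 libraries, among 11035 genes with a mean of at least 5 CPM. This measures likeness over 3 groups, which all genes share, and carries no test. It is not scaled to the size of a gene's changes, so members that changed less can have smaller differences. Nearest to Anxa2 were Mt1, a metallothionein, at a difference of 0.250, and Sfn, which encodes 14-3-3 sigma, at 0.281. Anxa3 was followed by Tnfrsf23 (0.291) and Smpdl3b (0.312), and Anxa1 by Nbl1 (0.307) and Emp2 (0.308). Differences were smaller for members that changed less: Anxa4 with Riok3 (0.0869) and Noc2l (0.0960), Anxa5 with Sept7 (0.114) and Serpinh1 (0.115), Anxa6 with Rpp38 (0.0757) and Tmem199 (0.0850), and Anxa7 with Riok3 (0.0712) and Acot9 (0.0855). Anxa11 was nearest to Mynn (0.0781) and Papolg (0.0910), and Anxa13 to Slc51a, a bile acid and steroid transporter subunit (0.153), and Gpr137b-ps (0.165).

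Within the family, by the same unscaled measure, the closest pair was Anxa4 and Anxa7, at a difference of 0.0977. The 6 closest pairs were those among Anxa4, Anxa5, Anxa6 and Anxa7, at 0.0977 to 0.205. Anxa2 and Anxa3 came next at 0.510, and Anxa3 and Anxa13 were the least alike at 2.66. The spread between libraries of a group differed as well. In NC the coefficient of variation of CPM was 39.5% for Anxa2 and 35.0% for Anxa1, against 6.41% for Anxa7 and 7.29% for Anxa11.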

How the data were processed

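RNA was measured in 12 mouse kidney libraries, 4 per group, grouped by their titles. Per the labels' protocols, total RNA was extracted with TRIzol, poly(A) RNA was selected, and strand-marked (dUTP) libraries were sequenced as read pairs. Tools named in the submitters' processing notes are fastp, StringTie and edgeR, with build GRCm39; no aligner, annotation or version is given in the sources used here. Per the file headers, the deposited values are a count and an FPKM (a value per gene length and library size) per gene and library. The authors' counts were tested as deposited. Their FPKM were used to compare levels between genes, for the family shares and sums, and for the FPKM ratio of Anxa2 to S100a10. These FPKM are not TMM-scaled, so groups can stand differently on them. Anxa6 averaged 34.8 FPKM in FGF23 variant kidneys and 32.5 in AKI_mcherry, but 97.7 and 106 CPM. Symbols were matched for 31942 of 32047 identifiers through a supplied annotation.

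Each comparison was fitted on its 8 libraries with edgeR 4.0.16 in R 4.3.3 (TMM, filterByExpr, quasi-likelihood F test), with Benjamini-Hochberg adjustment over all genes tested and a threshold of 0.05. CPM uses TMM factors over all 12 libraries. Counts of 3, 4 and 5 occurred 5847, 11995 and 3638 times, so counts are not taken as independent molecules. Library pairs within groups differed beyond sampling noise and none was counted as a duplicate. The Anxa2 to S100a10 ratio was tested by an exact permutation test. Sequences are from RefSeq (GRCm38.p6), and motifs were searched in Python 3.11.15. The gene test was checked on simulated data. Alternatives were RLE scaling, library totals alone, testing every gene without the low-count filter, DESeq2 1.42.0, all 12 libraries in 1 fit, a replicate block, the FPKM ratio and 1 library left out at a time.

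The members and gene lists were chosen with earlier results of these data known. Named are all 12 annexins, up to 4 genes per list from those called, and the 2 genes nearest to each member; the rule was the order of adjusted p, which was not followed throughout, so the list genes named, with Fpr2 and S100b, were chosen after their values were seen. Of 124 list symbols, 122 were found, and Fpr3 and Myh4 were not. Values of 1 list gene are not reported here.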

Additional observations from a re-analysis of the deposited data

Results flagged for a closer look

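The 4 libraries of each group were searched, for each of the 9 annexins, for a library set apart from the rest, measured as its gap to the nearest other library over the range of the group. Of 27 sets of 4, 2 passed Dixon's 95% limit for 4 values, where chance gives about 1 in 20. Anxa4 in FGF23 variant kidneys had a gap of 0.863 of the range, with library 5 at 143 CPM and the other 3 at 129 to 131 CPM. Anxa7 in AKI_mcherry had a gap of 0.859, with library 3 at 294 CPM and the other 3 at 344 to 353 CPM. Without these libraries the calls of Anxa4 and Anxa7 in FGF23 variant kidneys against AKI_mcherry kept their side of the threshold.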

How the results depend on the processing

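The number of annexins called stayed at 8 or 9 in AKI_mcherry against NC, and at 7 in FGF23 variant kidneys against NC except for 9 with library totals alone, under the alternatives run. In FGF23 variant kidneys against AKI_mcherry it was 5, with 4 to 6 elsewhere and 3 with the replicate block (Anxa1, Anxa2 and Anxa3). Replicate numbers are not stated to mark animals or batches. Deviations of same-numbered libraries correlated at -0.39 to 0.10 in AKI_mcherry against NC. They correlated at 0.081 to 0.23 in FGF23 variant kidneys against AKI_mcherry and at -0.22 to -0.099 in FGF23 variant kidneys against NC. Differently numbered libraries were not compared, so these values cannot decide whether the numbers pair the samples. A library whose number has no partner adds nothing to the replicate block fit. Leaving out 1 library at a time gave 8 to 9, 4 to 5 and 7 to 7 calls in the 3 comparisons. Anxa1, Anxa2 and Anxa3 were called in all 15 fits of both AKI_mcherry against NC and FGF23 variant kidneys against AKI_mcherry. Library totals alone turned Anxa6 in FGF23 variant kidneys against AKI_mcherry to 0.097. Anxa13 there ran from -0.22 to 0.33 with 1 library left out. For Anxa11 in FGF23 variant kidneys against NC, where the value was 0.0050, the sign turned with RLE scaling (-0.0057), all 12 libraries in 1 fit (-0.013) and in 3 of 8 fits with 1 library left out (-0.047 to 0.045). The cause of these turns was not tested. The Anxa2 to S100a10 ratio with 1 library left out gave 0.99 to 1.22 for AKI_mcherry against NC, -0.99 to -0.85 for FGF23 variant kidneys against AKI_mcherry and 0.06 to 0.29 for FGF23 variant kidneys against NC; with 35 assignments it cannot pass 0.05. The FPKM ratio gave 1.12, -0.93 and 0.19. Few counts stand behind Anxa10 (at most 4 per library), Anxa8 (as few as 31) and Anxa13 (as few as 71).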
